A study of Mus musculus with 6 samples.

Results

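The 10 genes described here make up the core of the NF-kappaB system: 5 encode its subunits (Nfkb1, Nfkb2, Rel, Rela, Relb) and 5 encode inhibitors (Nfkbia, Nfkbib, Nfkbie, Nfkbiz, Tnfaip3). They were picked by gene symbol, with earlier results of these data known. All 10 were found among the 18543 genes of the count table, and all 10 were among the 14052 genes that passed the low-count filter. The cells were group 2 innate lymphoid cells (ILC2s), lymphocytes without rearranged antigen receptors, sorted from mouse lung. The series set 3 libraries labelled wild type (WT 1 to WT 3) against 3 labelled Atg5-/- (KO 1 to KO 3), to ask what a lack of autophagy does to ILC2 transcripts. Atg5 encodes a protein needed to form autophagosomes. All mice were C57BL/6 and 8 weeks old, and all had received IL-33 through the nose (0.5 µg, on 3 days in a row) before their cells were taken on day 4. No unstimulated cells were measured. The labels name no Cre driver, no deleted exons and no sort gates, and they do not say that each library came from its own mouse. The p-values below therefore measure the spread between these libraries, which may be technical.

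NF-kappaB is a family of dimeric transcription factors. In resting cells IkappaB proteins hold the dimers in the cytoplasm. When a receptor such as that for IL-33 is engaged, the IKK kinase complex phosphorylates IkappaB, which is degraded, and the freed dimers enter the nucleus. Several inhibitor genes are themselves targets of the factor, so activation is followed by new inhibitor RNA. In ILC2s this pathway connects IL-33 to the transcription of cytokine genes.

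The libraries labelled WT 3 and KO 3 stood apart from their labels in the targeted gene, and this touches every value below. Atg5 measured 66.3 CPM under label WT 1 and 71.8 CPM under label WT 2, but 21.8 CPM under label WT 3, where CPM are counts scaled to a library size adjusted by the trimmed mean of M-values (TMM). Labels KO 1 to KO 3 had 23.0, 25.6 and 52.2 CPM. The library labelled WT 3 was thus the lowest of all 6, and that labelled KO 3 had over 2 times the level of KO 1 and of KO 2 and lay nearer to WT 1 and WT 2. The log2 difference of Atg5 was -0.67 ± 0.50 (SE), adjusted p = 0.478 with all 6 libraries, -1.03 ± 0.33 (SE), adjusted p = 0.0489 without WT 3 and -1.50 ± 0.12 (SE), adjusted p = 6.55e-06 without both libraries numbered 3 (edgeR). Directions below are between labels. Over the 10 genes, the root mean square difference in log2 level was 0.0769 between the libraries labelled WT 3 and KO 1. It was 0.291 between WT 1 and WT 2, and 1.34 between WT 1 and WT 3. Over all genes that passed the filter these 3 values were 0.366, 0.352 and 0.883. The library labelled KO 3 was 0.552 and 0.543 from KO 1 and KO 2, which were 0.381 from each other. KO 3 was farther from WT 1 and WT 2, at 0.978 and 0.966, unlike its level of Atg5. Over the 10 genes KO 3 was 1.57 and 1.43 from WT 1 and WT 2, against 0.267 and 0.342 from KO 1 and KO 2. Each of the 10 genes is given with all 6 libraries and without the library labelled WT 3, and their calls also without both libraries numbered 3. Depth was 28827545 to 33662979 estimated counts a library, so 3 counts are 0.0892 to 0.104 CPM. Gata3, the lineage factor of ILC2s, was present at 900.1 to 1559 CPM and Il5 at 5352 to 9194 CPM, while Thy1 was low, at 0.670 to 9.85 CPM.

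With all 6 libraries none of the 10 genes passed edgeR's quasi-likelihood test at an adjusted p of 0.05, and their adjusted p ran from 0.350 to 0.694. Nor did any other gene, so that 0% of those tested were called. At an unadjusted p under 0.05 there were 2026 genes (14.4%), and none of the 10 was among them. DESeq2, run without the low-count filter, called 362 of all 18543 genes on the same libraries, again none of the 10. These were 1.95% (0.108% higher and 1.84% lower under the KO label). Of the 10, 3 had an unadjusted p under 0.05 by DESeq2, against 16.1% of the 18543 genes. That base includes genes with few or no counts, unlike the 10. Without the library labelled WT 3, 8 of the 10 rose under the KO label and none fell. In that fit 33.9% of 14743 genes were called, 17.7% of all genes higher and 16.1% lower. The 8 comprised 4 subunit genes (Rel, Rela, Relb, Nfkb2) and 4 inhibitor genes (Nfkbia, Nfkbib, Nfkbiz, Tnfaip3), while Nfkb1 and Nfkbie did not pass. In a comparison of 2 with 2, without both libraries numbered 3, 45.4% of genes were called (22.7% higher and 22.7% lower), and the same 8 genes rose, Nfkb1 fell and Nfkbie did not pass. The median log2 difference of the 10 was 0.82 without WT 3, beside 0.02 over all genes. With all 6 libraries it was 0.48, beside 0.02.

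**Figure D1:**
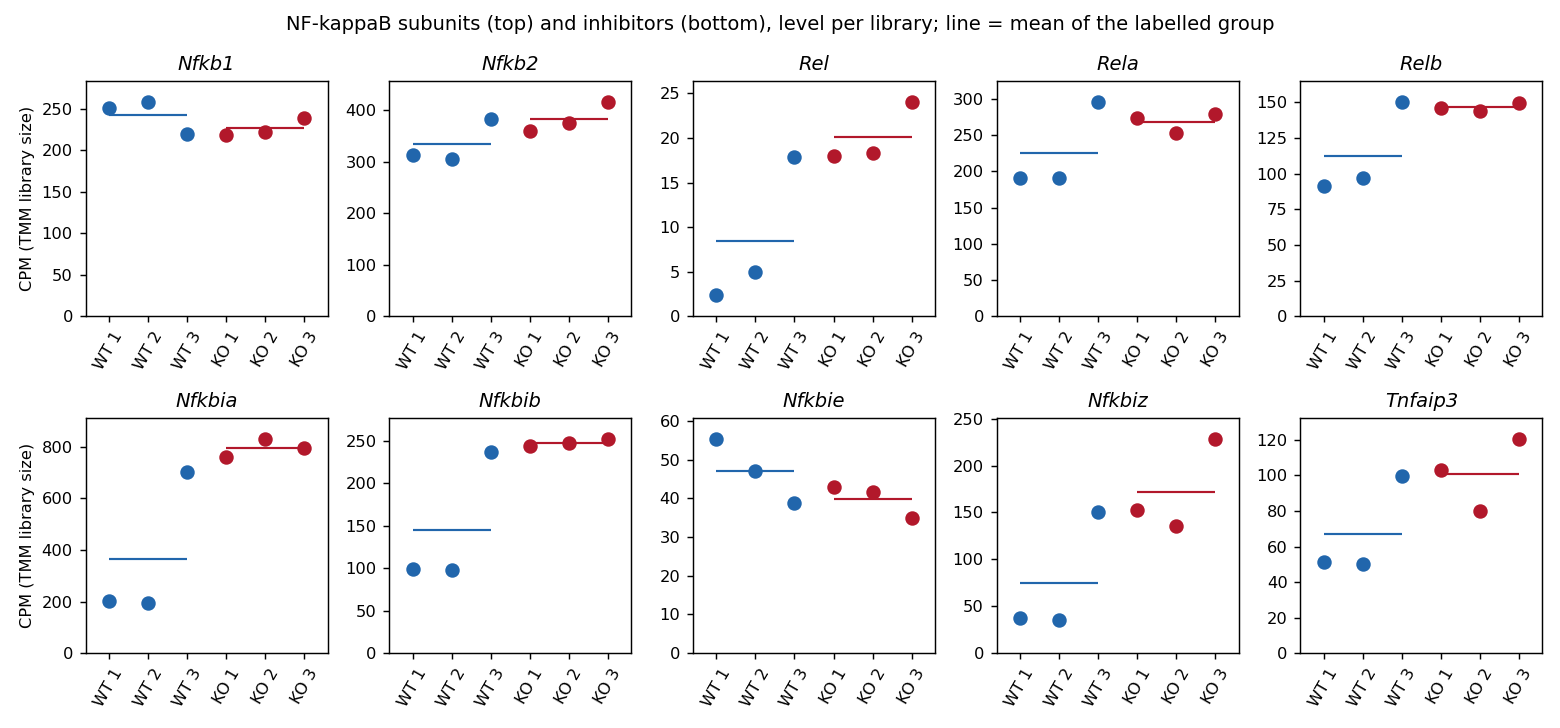
Level of each gene in CPM (vertical axes, from 0) in the 6 libraries by label (horizontal axes); points are libraries, blue for the WT label and red for the KO label, and lines are group means. For Nfkbia the points labelled WT 1 and WT 2 lie at 201 and 193 CPM and the other 4 at 704 to 829.9 CPM, and in 7 further panels the same 2 points are the lowest, whereas for Nfkb1 and Nfkbie they are the highest.

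Rel had the lowest level of the subunit genes and the largest fold change. It encodes c-Rel, a subunit best known from activated lymphocytes (chr11:23736847-23770970, minus strand, mm10). Only 2.46 CPM of Rel was found under label WT 1 and 4.94 CPM under label WT 2, against 17.9 CPM under label WT 3 and 17.9, 18.3 and 24.0 CPM under labels KO 1 to KO 3. These levels rest on 75 and 151 estimated counts for the first 2, then on 541, and on 518, 616 and 752. On the CPM scale the label groups only just separated, and in estimated counts the library labelled WT 3 exceeded KO 1. The log2 difference with all 6 libraries was 1.25 ± 0.67 (SE), adjusted p = 0.372. Dropping the library labelled WT 3 gave 2.45 ± 0.34 (SE), adjusted p = 0.00176 (edgeR), a 5.45-fold rise.

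Rela and Relb divided the libraries in the same way with smaller steps. Rela encodes p65, the main transactivating partner of p50 (chr19:5637483-5648130, plus strand). Its level was 191 CPM in each of the libraries labelled WT 1 and WT 2, 295 CPM under label WT 3, and 273, 252 and 278 CPM for labels KO 1 to KO 3. The library labelled WT 3 was the highest of all 6, so the label groups overlapped. Its log2 difference was 0.25 ± 0.20 (SE), adjusted p = 0.512 with all 6 libraries and 0.50 ± 0.09 (SE), adjusted p = 0.00484 without that one. Relb encodes the transactivating subunit of the non-canonical pathway (chr7:19606217-19629438, minus strand). Labels WT 1 and WT 2 had 91.4 and 96.8 CPM of it, label WT 3 had 150.0 CPM, and labels KO 1 to KO 3 had 146, 144 and 149.8 CPM. Here too WT 3 was the highest, by a small margin. Relb gave 0.38 ± 0.21 (SE), adjusted p = 0.375 in the full comparison and 0.65 ± 0.09 (SE), adjusted p = 0.00155 in the reduced one. Among all pairs of the 10 genes, Rela and Relb had the closest patterns over the 6 libraries, with a root mean square difference of 0.0804 log2 units after each gene was centred.

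The 2 genes that encode precursor subunits moved least among the subunits. Nfkb2 encodes p100, which is processed to p52, and Nfkb1 encodes p105, which is processed to p50; the unprocessed precursors also act as inhibitors. For Nfkb2 (chr19:46304737-46312090, plus strand) the values were 313 and 306 CPM under labels WT 1 and WT 2, 383 CPM under label WT 3 and 361, 374 and 415 CPM under labels KO 1 to KO 3. Label WT 3 lay inside the range of the KO label. The difference of Nfkb2 was 0.20 ± 0.16 (SE), adjusted p = 0.495 with all libraries and 0.31 ± 0.09 (SE), adjusted p = 0.0378 with that library left out. This call ended with upper-quartile scaling in place of TMM (0.27, adjusted p = 0.0670). Exons of Nfkb2 share 299 bases with Psd on the opposite strand, a gene at 4.88 to 7.76 CPM, and 531 bases with the non-coding AC114539.1, which has no row in the count table.

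Nfkb1 (chr3:135584655-135691547, minus strand) was the subunit gene that did not pass. Labels WT 1 and WT 2 had the 2 highest values, 250.5 and 258 CPM, while label WT 3 had 219.9 CPM and labels KO 1 to KO 3 had 218, 222 and 239 CPM. Its log2 difference was -0.10 ± 0.14 (SE), adjusted p = 0.694 over all libraries and -0.16 ± 0.09 (SE), adjusted p = 0.199 without WT 3. In the comparison of 2 with 2 it fell (-0.20 ± 0.07 (SE), adjusted p = 0.0399).

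Nfkbia had the lowest p of the 10 genes and the highest level per length. It encodes IkappaBalpha, the inhibitor that is degraded and made anew in each round of canonical signalling (chr12:55489410-55492647, minus strand). The library labelled WT 1 held 201 CPM, WT 2 held 193 CPM and WT 3 held 704 CPM, while labels KO 1 to KO 3 held 763, 829.9 and 794 CPM. The label groups did not overlap, but the library labelled WT 3 lay much nearer to the KO label than to the other 2 of its own, so that the WT label had 366 ± 293 CPM and the KO label 796 ± 33.7 CPM (mean ± SD, n = 3 each). The log2 difference was 1.12 ± 0.51 (SE), adjusted p = 0.350. In the fit without WT 3 it was 2.02 ± 0.09 (SE), adjusted p = 3.08e-05, a 4.06-fold rise that ranked 32 by p among 14743 genes.

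Of the other classical IkappaB genes, Nfkbib rose without WT 3 and Nfkbie did not pass. Nfkbib encodes IkappaBbeta, which is degraded and restored more slowly than IkappaBalpha (chr7:28758251-28767512, minus strand). It was read at 99.7 and 98.4 CPM under labels WT 1 and WT 2, 237 CPM under WT 3 and 244, 248 and 252 CPM under KO 1 to KO 3. The KO label lay above the WT label throughout, by a small margin for WT 3. The test gave 0.77 ± 0.35 (SE), adjusted p = 0.350 with all 6 libraries and 1.33 ± 0.08 (SE), adjusted p = 9.49e-05 without WT 3. Exons of Nfkbib share 314 bases with Ccer2 and 42 with Sirt2, both on the opposite strand, and the handling of strand is not known here. Ccer2 was at most 0.197 CPM, and Sirt2, at 85.3 to 118 CPM, gave -0.06 ± 0.14 (SE), adjusted p = 0.798 without WT 3.

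Nfkbie encodes IkappaBepsilon (chr17:45555716-45563169, plus strand). In the order of the labels, its values were 55.3 and 47.1 CPM, then 38.8 CPM for WT 3, and then 43.0, 41.6 and 34.9 CPM for KO 1 to KO 3. WT 1 and WT 2 were highest, as for Nfkb1, and the label groups overlapped through WT 3. Neither fit passed, with -0.24 ± 0.18 (SE), adjusted p = 0.471 for all 6 libraries and -0.35 ± 0.14 (SE), adjusted p = 0.0961 without WT 3.

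The remaining inhibitors act outside the cytoplasmic complex. Nfkbiz encodes IkappaBzeta, an inducible nuclear IkappaB that is also needed for the transcription of some target genes (chr16:55811375-55838899, minus strand). It stood at 37.5 and 35.1 CPM for labels WT 1 and WT 2, 151 CPM for WT 3 and 152, 136 and 228 CPM for KO 1 to KO 3. The library labelled KO 3 was above all others, and WT 3 lay within the range of the KO label. The log2 difference of Nfkbiz was 1.21 ± 0.58 (SE), adjusted p = 0.356 in the full set. It was 2.25 ± 0.23 (SE), adjusted p = 0.000522 without WT 3, a 4.76-fold rise, and 2.00 ± 0.10 (SE), adjusted p = 3.90e-07 in the comparison of 2 with 2.

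Tnfaip3 encodes A20, a ubiquitin-editing enzyme that shuts off signalling upstream of IKK (chr10:19000910-19015657, minus strand). Labels WT 1 and WT 2 had 51.0 and 50.4 CPM, WT 3 had 99.8 CPM, and KO 1 to KO 3 had 103, 79.7 and 120.4 CPM. Again WT 3 lay within the range of the KO label. Tnfaip3 gave 0.59 ± 0.31 (SE), adjusted p = 0.367 with all 6 libraries and 1.00 ± 0.17 (SE), adjusted p = 0.00465 with WT 3 left out, a 2.00-fold rise.

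In 3 of the 10 genes (Rel, Nfkbia and Nfkbib) every library labelled KO lay above every library labelled WT, and in none did all lie below. Of all genes that passed the filter 18.5% were separated in this way, 9.26% upwards and 9.22% downwards. The library labelled WT 3 differed from the mean of the KO label by -0.19 (Nfkbiz) to 0.14 (Rela) log2 units over the 10 genes.

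**Figure D2:**
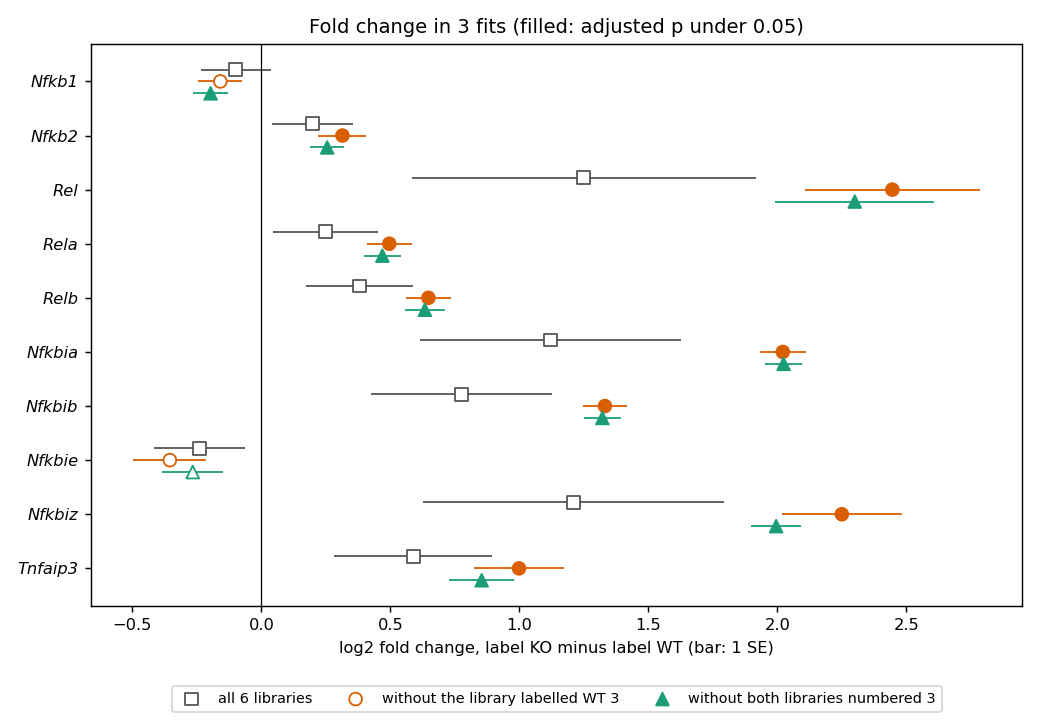
Log2 fold change, KO label minus WT label (horizontal axis), of the 10 genes (vertical axis) in edgeR fits with all 6 libraries (squares), without the library labelled WT 3 (circles) and without both libraries numbered 3 (triangles); bars are 1 SE, and filled symbols have an adjusted p under 0.05. No square is filled, 8 circles are filled, all to the right of 0, and 9 triangles are filled, with Nfkb1 to the left.

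Levels of different genes were compared as CPM per kilobase of annotated exon. By the median over the 6 libraries, Nfkbia came first with 456 CPM per kilobase, followed by Nfkbib with 111, Rela with 85.5 and Nfkb2 with 80.2. Lower down were Relb with 37.4, Nfkbiz with 28.6, Nfkb1 with 19.1, Nfkbie with 13.9 and Tnfaip3 with 12.4 CPM per kilobase, and Rel was last with 2.40. Over the 6 libraries the ranges of neighbours in this order overlapped except for Nfkbia above Nfkbib, Nfkb2 above Relb, and Tnfaip3 above Rel. The order by the median was not that of WT 1 and WT 2. There Nfkbib, at 45.99 and 45.36 CPM per kilobase, lay below Rela (62.06 and 62.13) and Nfkb2 (68.35 and 66.73). Nfkbiz, at most 7.48 in WT 1 and WT 2, lay below Nfkb1 and Nfkbie there. In every other library Nfkbib was above Rela and Nfkb2, and Nfkbiz was above Nfkb1 and Nfkbie. Lengths are from GENCODE vM21, whose gene ends differ from the deposited ones for Nfkb2 and Nfkbie. The order depends on the length used: the exons of Nfkb1 cover 12.1 kilobases in union but 4.12 in its longest coding transcript. With transcript lengths Nfkb1 moved above Nfkbiz (56.0 against 34.8 CPM per kilobase) and Tnfaip3 above Nfkbie (20.3 against 17.4).

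Summed levels of inhibitor transcripts spanned a wider range than those of the subunits. The 5 subunit genes together had 175 and 176 CPM per kilobase under labels WT 1 and WT 2, 239 under WT 3, and 226, 222 and 243 under KO 1 to KO 3. For the classical inhibitors Nfkbia, Nfkbib and Nfkbie the sums were 189 and 181, then 559.5, then 600.3, 644 and 621 CPM per kilobase. The ratio of the classical inhibitors to the subunits was 1.08 and 1.03 in WT 1 and WT 2, 2.34 in WT 3, and 2.66, 2.90 and 2.56 in KO 1 to KO 3. These ratios and the shares below use the union of exons, concern transcripts and not protein, and were not tested. They depend on the length used. With its longest coding transcript the median of Nfkb1 is 56.0 in place of 19.1 CPM per kilobase. Transcript lengths thus give lower ratios and a larger share of Nfkb1. Within the subunit sum Rela held 35.3% to 40.2% and Nfkb2 34.8% to 39.1% over the 6 libraries. The share of Nfkb1 was 11.9% and 12.2% in WT 1 and WT 2 and 7.64% to 8.32% in the other 4, and Rel never exceeded 1.32%. Within the sum of all 5 inhibitors, Nfkbia held 61.3% and 61.5% in WT 1 and WT 2 and 72.2% to 75.6% elsewhere. Nfkbie held 8.92% and 7.95%, against 1.68% to 2.19%.

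**Figure D3:**
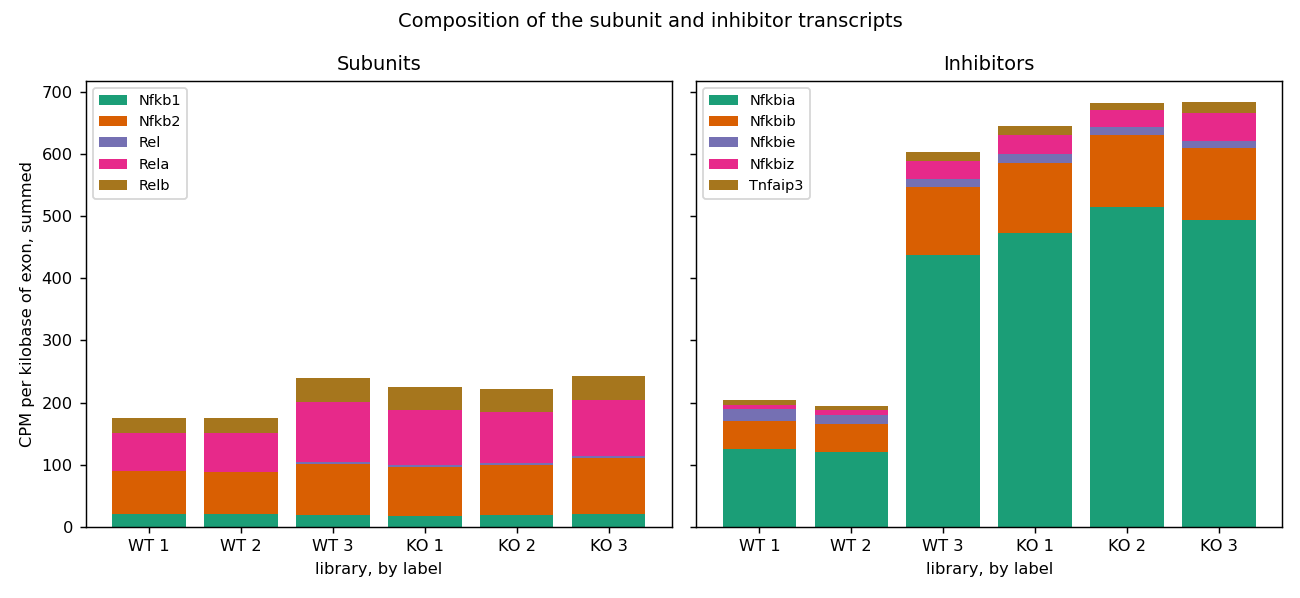
Stacked levels of the 5 subunit transcripts (left) and the 5 inhibitor transcripts (right) in CPM per kilobase of exon (vertical axis, from 0) for each library by label (horizontal axis). Subunit columns run from 175 to 243, while inhibitor columns are 204 and 195 for WT 1 and WT 2 and 603 to 683 for the other 4, most of it Nfkbia.

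Several of these genes are known targets of NF-kappaB itself, so the sequence before their start sites is shown. RefSeq windows of the 250 bases before the start (GRCm38.p6) were found for 7 of the 10 genes, and not for Nfkb1, Relb and Nfkbiz. The general kappaB consensus of 10 bases was searched on both strands, and overlapping matches were counted as 1 place. At least 1 place was found for 5 of the 7 genes (Nfkb2, Rel, Nfkbia, Nfkbie and Tnfaip3), against 4.46% of all 27025 genes with a window. The windows of Nfkbia (chr12:55492648-55492897, minus strand), Rel (chr11:23770970-23771219, minus strand) and Nfkbie (chr17:45555450-45555699, plus strand), which lie before the annotated exons of their genes (that of Rel but for 1 base), are printed whole with the match in capitals.
Nfkbia: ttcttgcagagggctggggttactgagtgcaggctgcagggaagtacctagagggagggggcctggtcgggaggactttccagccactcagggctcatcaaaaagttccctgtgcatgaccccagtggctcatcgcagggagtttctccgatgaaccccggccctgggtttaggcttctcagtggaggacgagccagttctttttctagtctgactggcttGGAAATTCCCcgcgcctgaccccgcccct
Rel: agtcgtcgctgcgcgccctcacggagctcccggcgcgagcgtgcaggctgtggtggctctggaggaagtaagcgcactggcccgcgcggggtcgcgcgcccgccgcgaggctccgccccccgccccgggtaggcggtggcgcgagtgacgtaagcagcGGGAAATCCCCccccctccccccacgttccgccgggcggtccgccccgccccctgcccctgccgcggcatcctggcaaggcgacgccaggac
Nfkbie: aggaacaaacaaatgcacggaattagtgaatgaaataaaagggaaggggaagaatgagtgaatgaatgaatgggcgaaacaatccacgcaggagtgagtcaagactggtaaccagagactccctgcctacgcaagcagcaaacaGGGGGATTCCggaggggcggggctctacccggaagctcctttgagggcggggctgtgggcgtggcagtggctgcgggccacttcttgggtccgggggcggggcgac

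The match begins 29 bases before the start in Nfkbia, 92 before it in Rel and 106 before it in Nfkbie. Tnfaip3 and Nfkb2 each held 2 places before their first listed start, and only the bases around them are printed, since 110 of the 250 bases of the Tnfaip3 window and all 250 of the Nfkb2 window lie in annotated exons of these genes. The other 2 listed starts of Nfkb2 each had 1 place, not printed here.
Tnfaip3, from 125 bases before the start: actcacgcgGGGACACCCCggggcggga
Tnfaip3, from 12 bases before the start: atttccatcGGAAATCCCCct
Nfkb2, from 39 bases before the start: gatcgtcacGGGAATTCCCCccctcggg
Nfkb2, from 11 bases before the start: gggccgaaaGGGGCTTTCCc

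The capitals again mark the matches. Of all 32851 windows, 3.90% held at least 1 place and 0.143% held 2 or more. Binding was not measured, and a match only describes these letters.

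Around the 10 genes, 6 lists of pathway genes held 93 genes, of which 89 were tested. With all 6 libraries 0 of them passed in edgeR, with 16 at an unadjusted p under 0.05, and DESeq2 called 4. Without WT 3, 28 rose and 20 fell, and their median log2 difference was 0.12. These shares are to be read against the 17.7% and 16.1% of all genes given above. All calls in the paragraphs on the pathway are from the fit without WT 3.

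Of 5 further genes listed with the IkappaB family or as related to it (Nfkbid, Bcl3, Nfkbil1, Nkiras1 and Nkiras2) 1 rose. Nfkbid, which encodes the nuclear inhibitor IkappaBNS, had 23.0 and 25.9 CPM under labels WT 1 and WT 2, 86.1 CPM under WT 3 and 85.8, 79.1 and 59.2 CPM under KO 1 to KO 3 (1.62 ± 0.18 (SE), adjusted p = 0.000752). Bcl3, which encodes a nuclear partner of p50 and p52, had 138 and 138 CPM, then 174 CPM, and 183, 194 and 137 CPM, and did not pass (0.31 ± 0.15 (SE), adjusted p = 0.160).

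Among 12 genes of the IKK complex and the kinases above it, 1 rose and 2 fell. Chuk and Ikbkb encode the catalytic IKKalpha and IKKbeta, and Ikbkg encodes the scaffold NEMO. Chuk ranged over 113 to 135 CPM, Ikbkb over 131 to 171 CPM and Ikbkg over 54.8 to 77.2 CPM in the 6 libraries, and none passed (adjusted p of 0.624, 0.877 and 0.280, edgeR). Neither Map3k14, the NIK kinase of the non-canonical pathway (27.0 to 38.9 CPM, adjusted p = 0.897), nor Map3k7, the TAK1 kinase (94.3 to 126 CPM, adjusted p = 0.728), passed. The gene that rose was Map3k8, whose kinase is held by p105. It had 34.6 and 27.9 CPM for WT 1 and WT 2, 47.3 CPM for WT 3 and 42.1 to 43.5 CPM for the KO label (0.47 ± 0.14 (SE), adjusted p = 0.0358). This call was lost in 1 of 5 other fits without WT 3 (adjusted p = 0.0544).

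Adaptors between receptor and IKK moved both ways, with 2 of 17 higher and 5 lower. Named after their values were seen, the higher were Irak3 and Traf2, with log2 differences of 3.72 and 0.59. The lower were Irak2 (-0.66), Irak4 (-0.58), Ripk1 (-0.42), Malt1 (-0.74) and Birc2 (-0.59). The 4 adaptors chosen for their role did not pass. Myd88, the adaptor of the IL-33 receptor, lay at 84.6 to 104 CPM (adjusted p = 0.513), and Traf6, the ubiquitin ligase below it, at 38.1 to 57.0 CPM (adjusted p = 0.867). Traf3, a ubiquitin ligase gene of the non-canonical pathway (0.38 ± 0.13 (SE), adjusted p = 0.0604), and Birc3, the gene of its partner cIAP2 (0.34 ± 0.12 (SE), adjusted p = 0.0701), missed the threshold.

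In the list of ubiquitin editors and the linear ubiquitin ligase complex LUBAC, 5 of 16 rose and 4 fell. Tnip1, which encodes an A20-binding protein, had 138 and 128 CPM for WT 1 and WT 2, 158 CPM for WT 3 and 156 to 182 CPM for the KO label, and rose (0.37 ± 0.10 (SE), adjusted p = 0.0306). Otulin, which encodes a deubiquitinase for linear chains, rose as well (0.39 ± 0.11 (SE), adjusted p = 0.0349). Both calls were lost in 1 of 5 other fits without WT 3 (adjusted p of 0.0565 and 0.0552). Cyld, which encodes another deubiquitinase that restrains the pathway, fell: the values were 139 and 139 CPM for WT 1 and WT 2, 98.5 CPM for WT 3 and 81.7 to 92.3 CPM for the KO label (-0.66 ± 0.09 (SE), adjusted p = 0.00183). Rnf31, the catalytic subunit of LUBAC, was at 40.0 to 48.2 CPM and did not pass (adjusted p = 0.741).

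**Figure D4:**
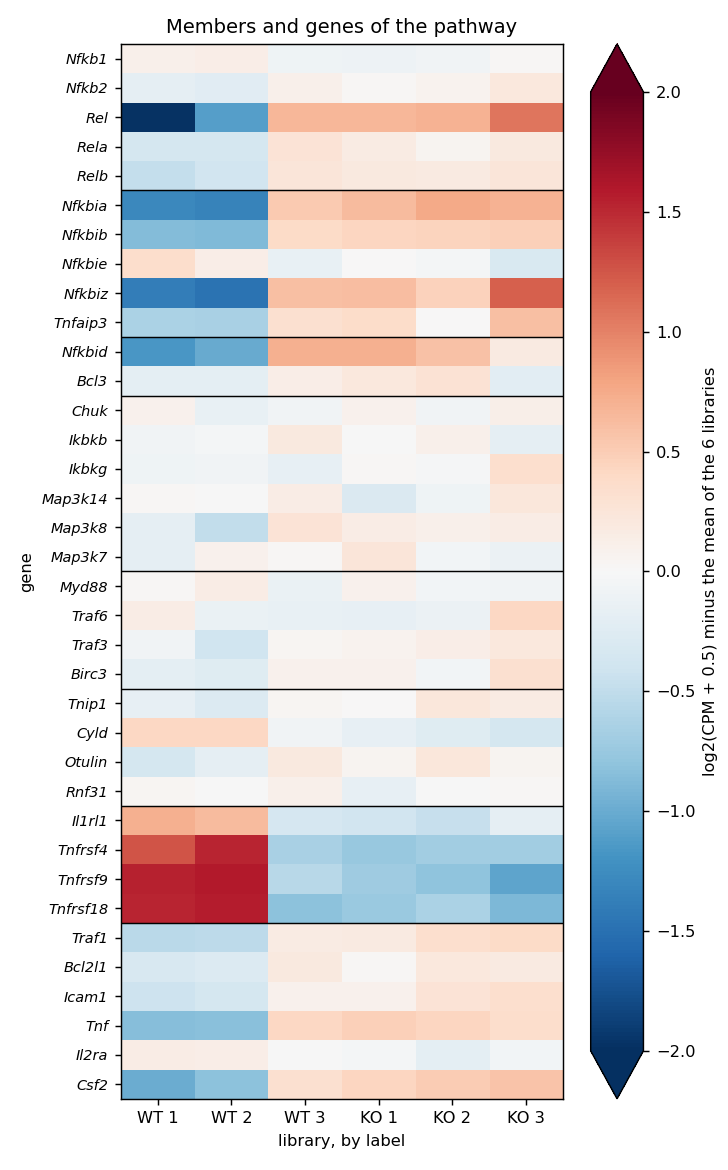
Log2(CPM + 0.5) minus the mean of the gene over the 6 libraries (colour scale from -2 to 2) for the 10 genes and 26 pathway genes (rows) by library label (columns); lines part subunits, inhibitors, other IkappaB genes, kinases, adaptors, ubiquitin editors, receptors and targets. Nfkbia, Nfkbiz, Rel and Nfkbid are lowest in the columns WT 1 and WT 2, where Tnfrsf4, Tnfrsf9 and Tnfrsf18 are highest.

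Receptors that feed the pathway had 4 of 13 tested genes higher and 4 lower. Il1rl1, which encodes the IL-33 receptor ST2, had 973 and 924 CPM for WT 1 and WT 2, 471 CPM for WT 3 and 432 to 527 CPM for the KO label. It fell by 1.00 ± 0.10 (SE), adjusted p = 0.000527. Tnfrsf18, which encodes GITR, had 704 and 725 CPM, then 137 CPM, and 130.4 to 157 CPM for the KO label (-2.30 ± 0.10 (SE), adjusted p = 3.08e-05). Tnfrsf4, the gene of OX40, went from 49.7 and 59.6 CPM to 11.9 to 12.5 CPM, with 12.9 CPM in WT 3 (-2.14 ± 0.14 (SE), adjusted p = 0.000106). Tnfrsf9, the gene of 4-1BB, went from 262 and 271 CPM to 43.0 to 54.6 CPM, with 60.8 CPM in WT 3 (-2.42 ± 0.12 (SE), adjusted p = 3.75e-05). With all 6 libraries DESeq2 also called Tnfrsf4, Tnfrsf9 and Tnfrsf18 lower. The 4 receptor genes that rose, named after their values were seen, were Tnfrsf1b (1.12 ± 0.09 (SE), adjusted p = 0.000220), Tnfrsf25 (1.00 ± 0.09 (SE), adjusted p = 0.000294), Tnfrsf11a, the gene of RANK (1.67 ± 0.13 (SE), adjusted p = 0.000172), and Cd40 (2.80 ± 0.44 (SE), adjusted p = 0.00300). Cd40 was at most 5.71 CPM.

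Of 26 tested genes widely used as NF-kappaB targets, 15 rose and 5 fell. Their median log2 difference was 0.59 without WT 3 and 0.47 with all 6 libraries, where none passed in edgeR. Traf1, a signalling adaptor gene, had 287 and 292 CPM for WT 1 and WT 2, 468 CPM for WT 3 and 474 to 545 CPM for the KO label (0.84 ± 0.09 (SE), adjusted p = 0.000733). Tnf, the cytokine gene, had 17.2 and 17.3 CPM, then 42.0 CPM, and 40.0 to 43.8 CPM for the KO label (1.29 ± 0.13 (SE), adjusted p = 0.000433). Csf2, which encodes GM-CSF, had 564 and 640.1 CPM, then 1405 CPM, and 1515 to 1683 CPM for the KO label (1.42 ± 0.10 (SE), adjusted p = 0.000133). The adhesion gene Icam1 (0.63 ± 0.10 (SE), adjusted p = 0.00355) and the survival gene Bcl2l1 (0.45 ± 0.10 (SE), adjusted p = 0.0105) also rose. The largest rises, named after their values were seen, were those of Ptgs2 (8.53 ± 1.40 (SE)), Il6 (5.48 ± 0.33 (SE)), Cd83 (5.40 ± 0.42 (SE)) and Gadd45b (4.30 ± 0.21 (SE)). Their levels in WT 1 and WT 2 were low, from 0 CPM (Ptgs2 in WT 2) to 9.07 CPM (Gadd45b in WT 2). The 5 that fell, named after their values were seen, were the lymphotoxin genes Lta (-1.99 ± 0.13 (SE), adjusted p = 0.000121) and Ltb (-1.99 ± 0.28 (SE), adjusted p = 0.00184), the cytokine subunit gene Ebi3 (-1.39 ± 0.16 (SE), adjusted p = 0.000875), the antigen-processing gene Tapbp (-1.13 ± 0.10 (SE), adjusted p = 0.000334) and the transcription factor gene Irf1 (-0.66 ± 0.10 (SE), adjusted p = 0.00296). Il2ra, the IL-2 receptor alpha chain, lay at 2075 to 2628 CPM and did not pass (-0.23 ± 0.08 (SE), adjusted p = 0.0712).

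Some markers of other cells differed along the same division of libraries as the 10 genes. Endothelial markers (3 of 5 in the table) summed to 8.64 to 93.3 CPM under the WT label and 92.1 to 131 CPM under the KO label, nearly all of it Pecam1. This gene, which some leukocytes also express, was at 10.4 and 8.54 CPM in WT 1 and WT 2 and at 92.0 to 131 CPM in the other 4, beside 93.1 to 106 CPM of the ILC2 marker Il7r. Vwf was at most 0.277 CPM and Cldn5 at most 0.199 CPM. Epithelial markers (5 of 7) summed to 15.3 to 59.1 CPM under the WT label and 9.35 to 29.6 CPM under the KO label. Most of it was Epcam except in KO 2, where Scgb1a1 was at 15.0 CPM and Epcam at 13.7 CPM. Scgb1a1 was at most 0.232 CPM in every other library. Krt8 was at most 0.485 CPM and Cdh1 at most 0.852 CPM. T cell markers (7 of 8) summed to 23.7 to 43.4 CPM under the WT label and 25.2 to 26.6 CPM under the KO label. Cd3g made up most of it except in KO 3. It was at 35.3 and 37.2 CPM in WT 1 and WT 2 and at 11.4 to 18.8 CPM in the other 4. Cd3d was at most 1.96 CPM, while Cd5 and Cd4 were highest in KO 3, at 4.05 and 2.90 CPM. Macrophage and monocyte markers (5 of 8) summed to 4.14 to 12.0 CPM under the WT label and 2.55 to 5.51 CPM under the KO label, and granulocyte and mast cell markers (4 of 9) to 3.91 to 12.8 CPM under the WT label and 0.542 to 4.26 CPM under the KO label. Dendritic cell markers (4 of 6) summed to 55.5 to 66.3 CPM under the WT label and 49.7 to 63.2 CPM under the KO label. Most of it was Xcr1, at 42.0 to 52.1 CPM, which did not follow the division. H2-Ab1 did, at 14.7 and 17.0 CPM in WT 1 and WT 2 and 5.84 to 9.16 CPM in the others. The lists of B cells, NK cells and ILC1s, ILC3s, fibroblasts and erythroid cells each summed to at most 19.5 CPM. The ILC2 markers themselves (12 of 12) summed to 14387 to 15762 CPM under the WT label and 10357 to 14312 CPM under the KO label, mostly Il5. Without WT 3, 2 of them rose and 5 fell, beside 17.7% higher and 16.1% lower over all genes. Single ILC2 markers, picked after their values were seen, also followed the division: Gata3 was at 1559 and 1533 CPM in WT 1 and WT 2 and at 900.1 to 964 CPM in the other 4. Klrg1 was at 526 and 556 against 121 to 174 CPM, Thy1 at 8.88 and 9.85 against 0.670 to 2.87 CPM, and Kit at 65.8 and 59.2 against 172 to 213 CPM. The part of these differences and of other cells in the levels of the 10 genes was not tested, and in bulk RNA fewer cells of a type and less RNA per cell cannot be told apart.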

How the data were processed

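The members and gene lists were chosen with earlier results of these data known. The authors deposited estimated counts per gene, 1 column per library, of which 47.1% to 48.5% were whole within 1e-06. They also deposited a normalized signal; by its values, the authors made it by adding 1 to each estimated count and dividing by a library factor of 31.2 to 36.0. Per the submitters' processing notes, CASAVA 1.8.2, STAR, Partek and mm10 were used, with no role stated. How strand and reads matching several genes were handled was not stated. No column (0) came from another sample.

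Groups follow the sample titles. Rounded counts were tested with edgeR 4.0.16 under R 4.3.3: TMM, filterByExpr, estimateDisp, robust glmQLFit and glmQLFTest, KO label against WT label with no covariate, and Benjamini-Hochberg adjustment over all genes tested at 0.05. The SE is the size of the log2 fold change over the square root of F. The steps were tested on simulated data with a fixed dispersion. No simulated library stood apart from its label as WT 3 does here. Alternatives were other scalings and filters, DESeq2 1.42.0, limma 3.58.1 (voom, and trend on the signal), non-robust dispersion, a replicate block and left-out libraries. The floor of 3 counts covers counting error only.

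Named genes are Atg5, the 10 members, 27 pathway genes chosen for their role (1 is not reported here), the most abundant or defining markers, genes overlapping a member, and the gene nearest in pattern to each member: the smallest root mean square difference of centred log2(CPM + 0.5) among genes with a mean of at least 10 CPM. Exon lengths and overlaps are from GENCODE vM21.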

Additional observations from a re-analysis of the deposited data

How the results depend on the processing

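With all 6 libraries, no member passed with any other scaling, filter, tool or dispersion setting tried, and the sign of all 10 log2 differences was the same in each of 17 alternatives. Deviations from the label mean had correlations of -0.04 to 0.02 between samples with the same number, and of -0.01 to 0.02 between unlike numbers. Under the WT label these deviations are largely those of WT 3 from WT 1 and WT 2, so they could hardly show a pairing. The edgeR fit with the replicate block called 0 genes (smallest adjusted p 0.247). DESeq2 called 362 genes and 4 pathway genes. Leaving out 1 library at a time gave 0 to 4991 genes, 0 to 8 members and 0 to 48 pathway genes, and every such call came from leaving out the library labelled WT 3. The comparison of 2 with 2 called 6505 genes, 9 members and 60 pathway genes, with log2 differences of -0.20 for Nfkb1, 0.26 for Nfkb2, 2.30 for Rel, 0.47 for Rela, 0.63 for Relb, 2.02 for Nfkbia, 1.32 for Nfkbib, 2.00 for Nfkbiz and 0.85 for Tnfaip3. With 1 library left out the ranges were 0.13 to 0.31 for Nfkb2, 0.80 to 2.45 for Rel, 0.12 to 0.50 for Rela, 0.23 to 0.65 for Relb, 0.81 to 2.02 for Nfkbia, 0.55 to 1.33 for Nfkbib, 0.87 to 2.25 for Nfkbiz and 0.41 to 1.00 for Tnfaip3, each highest without WT 3, and -0.16 to -0.05 for Nfkb1 and -0.35 to -0.13 for Nfkbie, each lowest without WT 3. Chosen after seeing the data, other fits without WT 3 called 8 members (DESeq2, limma-voom, DESeq2 size factors, library totals) or 7 (upper quartile). Over all genes the same fits called 5609 of 18543 (DESeq2) and 4941 to 5197 of 14743 (the others). The cause was not tested. Depth limits Rel most, with 75 estimated counts in its lowest library.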

Other observations

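Some feedback inhibitors outside the 10 genes had steps as large as that of Nfkbia, and these 3 were singled out after their values were seen. Irak3, which encodes an inhibitory member of the IRAK family, had 27.5 and 22.6 CPM for labels WT 1 and WT 2, 361 CPM for WT 3 and 314 to 342 CPM for the KO label. Zc3h12a, which encodes the RNase Regnase-1, had 13.0 and 13.7 CPM, then 114 CPM, and 106 to 116 CPM. Tnip3, which encodes an A20-binding protein, had 6.52 and 7.30 CPM, then 28.9 CPM, and 26.7 to 43.7 CPM. Without WT 3 all 3 rose, Irak3 by 3.72 ± 0.13 (SE), adjusted p = 2.10e-05, Zc3h12a by 3.08 ± 0.11 (SE), adjusted p = 2.10e-05, and Tnip3 by 2.30 ± 0.25 (SE), adjusted p = 0.000658 in edgeR. With all 6 libraries none of the 3 passed (adjusted p of 0.500, 0.422 and 0.354).

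The genes nearest in pattern over the 6 libraries, among 8330 candidates, were Pkm for Nfkb1, Cops7b for Nfkb2, Mpzl1 for Rel, Tars for Rela, Dap3 for Relb, Tmed1 for Nfkbia, Polr3d for Nfkbib, Rundc1 for Nfkbie, Sco2 for Nfkbiz and Trub2 for Tnfaip3. The root mean square difference ran from 0.0156 log2 units (Nfkb1 and Pkm) to 0.133 (Rel and Mpzl1). Tmed1, nearest to Nfkbia, had 8.26 and 8.38 CPM for WT 1 and WT 2, 30.0 CPM for WT 3 and 31.1 to 33.5 CPM for the KO label.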
